A study of Saccharomyces cerevisiae with 2 samples.

Results

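The genes described here encode the core of the pheromone response pathway of Saccharomyces cerevisiae, from the heterotrimeric G protein at the plasma membrane to the transcription factor in the nucleus. They were chosen by function, as the 10 rows of the deposited table whose identifiers belong to GPA1, STE4, STE18, STE20, STE5, STE11, STE7, FUS3, STE12 and SST2. All 10 were among the 4685 genes listed, and all 10 passed the filter on low values, which left 4642 genes. The series measured ribosome footprints and RNA in the laboratory strain BY4741, a haploid of mating type a, grown to mid-log phase in YPD, a rich glucose medium. There was 1 footprint library and 1 library of cytoplasmically enriched, rRNA-depleted RNA. No pheromone treatment is named in the labels, so the values are those of growing cells under that label. With 1 library for each assay no value has a replicate error, no difference between genes has a replicate check, and no p-value is given. Neighbours in any order of levels below therefore cannot be ranked with confidence.

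In this pathway a peptide pheromone from a cell of the opposite mating type binds a receptor of the 7-transmembrane class, and the receptor makes the alpha subunit of the G protein exchange GDP for GTP. The beta-gamma dimer is then free to recruit a scaffold protein and a p21-activated kinase (PAK), which starts a cascade of 3 protein kinases: a MAP kinase kinase kinase (MAPKKK), a MAP kinase kinase (MAPKK) and a MAP kinase (MAPK). The MAPK releases a transcription factor from its repressors and helps to arrest the cell cycle. An RGS protein, which speeds up GTP hydrolysis by the alpha subunit, returns the pathway to rest.

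The strain label was checked on mating-type genes. Of 7 genes specific to a cells 6 were listed, with footprint levels of 78.8 to 1769 RPKM (reads normalized to gene length and to the size of the library). Of 4 genes specific to alpha cells 1 was listed, the agglutinin gene SAG1, at 1.14 RPKM of footprints and 13.3 RPKM of RNA. The identifiers of all 10 pathway genes were matched to RefSeq's annotation of assembly R64, the assembly behind sacCer3. Each has 1 coding exon, none overlaps another annotated gene, and none of their 17256 stretches of 28 coding bases occurs anywhere else in the genome. Reads of that length are therefore not shared with a copy elsewhere.

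The pathway genes were expressed near the median of the analysed genes and carried ribosomes at close to their typical density. Genes under 10 RPM of RNA or without footprints are not in the deposited table. The median footprint level of the 10 pathway genes was 44.7 RPKM, against 39.4 RPKM over all analysed genes. The median RNA level of the 10 was 54.4 RPKM, against 49.6 RPKM. Footprint levels spanned 7.09-fold, between STE18 and STE7. RNA levels spanned 5.54-fold, between STE4 and STE11. Ribosome density is given on the log2 scale as footprint RPKM over RNA RPKM, minus the median of that ratio over the 4642 genes, so that 0 is the median gene and -1 is 2-fold below it. The density of the 10 genes ran from -0.65 for SST2 to 0.37 for FUS3, with a median of -0.17. It was below 0 in 7 of the 10, against 50% of all analysed genes, a share that the centring fixes. None of the 10 lay over 2-fold lower than the median gene, where 13.1% of all analysed genes lay, and none lay over 2-fold higher, where 6.79% lay. In either direction that makes 0 of 10, against 19.8% of all analysed genes. The SD of density over the 10 genes was 0.34, against 0.96 over all analysed genes. Between the 5% and 95% quantiles density spanned 1.97-fold over the 10 genes and 6.58-fold over all analysed genes. The 10 genes had at least 15.5 RPKM of footprints, while the analysed genes reached down to 0.05 RPKM and to a density of -10.4. Together the 10 genes took 0.0735% of the listed footprints and 0.112% of the listed RNA, by RPKM times coding length.

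**Figure D1:**
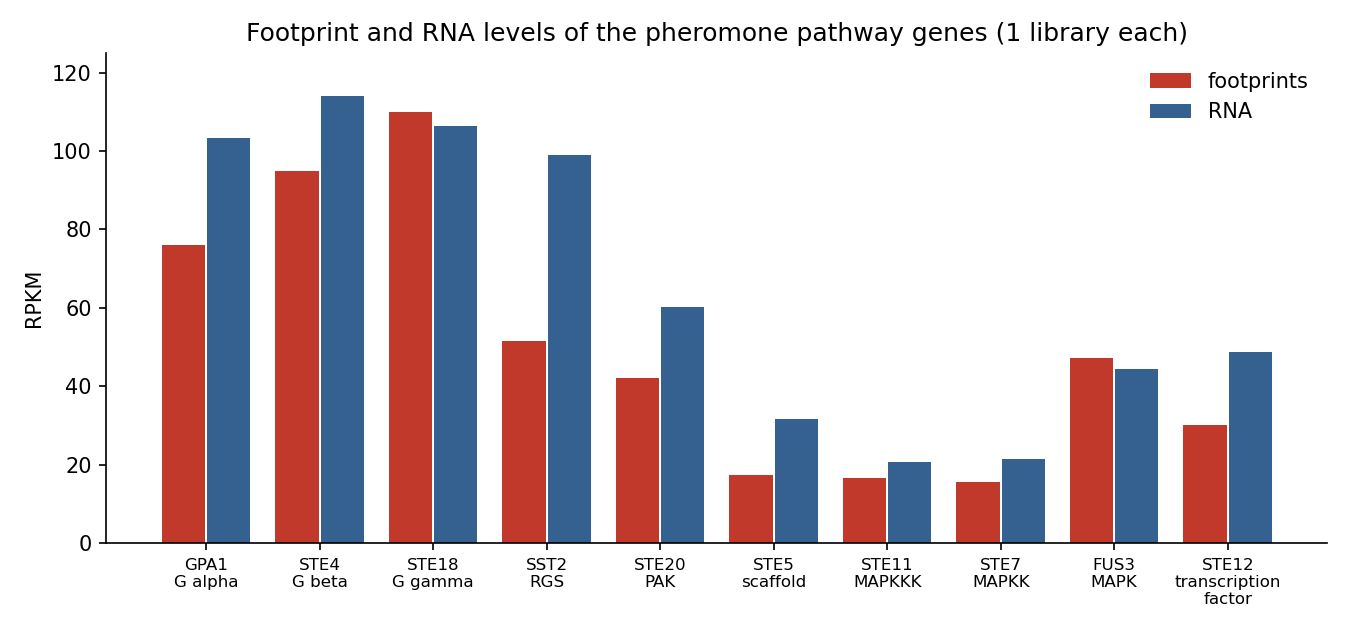
Footprint (left bars) and RNA (right bars) RPKM of the 10 pathway genes, with 1 library per assay and no error bars. The 3 G protein subunits and SST2 have RNA levels between 98.9 and 114 RPKM, and STE5, STE11 and STE7 have footprint levels between 15.5 and 17.3 RPKM.

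The 3 subunits of the G protein had nearly equal mRNA levels and were among the most highly expressed members. GPA1 (YHR005C, chrVIII:113499-114917, minus strand) encodes the alpha subunit, which binds guanine nucleotides and holds the pathway off at rest. It had 76.1 RPKM of footprints and 103 RPKM of RNA. STE4 (YOR212W, chrXV:742910-744181, plus strand) encodes the beta subunit, and it had 94.8 RPKM of footprints and 114 RPKM of RNA. STE18 (YJR086W, chrX:586068-586400, plus strand) encodes the lipid-modified gamma subunit that anchors the dimer to the membrane. It had 110 RPKM of footprints and 106 RPKM of RNA, the highest footprint level of the 10 genes.

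Across the 3 subunits the highest RNA level was 1.11 times the lowest, and the highest footprint level was 1.44 times the lowest. The obligate partners STE18 and STE4 were the closest pair in footprints, at a ratio of 1.16. In RNA the closest pair was STE18 and GPA1, at a ratio of 1.03. STE4 had 1.25 times the footprint level of GPA1, and STE18 had 1.44 times that level. The densities were -0.15 for GPA1, 0.02 for STE4 and 0.33 for STE18, which is the order of their footprint levels but not of their RNA levels. The pheromone receptor gene STE2, whose product acts just upstream, had 315 RPKM of footprints and 435 RPKM of RNA. Its footprint level was 4.14 times that of GPA1 and its RNA level 4.22 times, and its density of -0.18 was close to that of GPA1.

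SST2 (YLR452C, chrXII:1039270-1041366, minus strand) encodes the RGS protein that acts on Gpa1. It had 51.6 RPKM of footprints and 98.9 RPKM of RNA. Its mRNA level was thus beside those of the G protein subunits, with GPA1 at 1.04 times SST2 in RNA, while GPA1 had 1.48 times the footprints of SST2. The density of SST2, -0.65, was the lowest of the 10 genes and lay at percentile 22.4 of all analysed genes. The 200 genes nearest to SST2 in RNA level had a median density of 0.30, so that SST2 lay at -0.95 relative to its neighbours in RNA level (log2), the largest such gap among the 10 genes. The 200 genes nearest in coding length had a median of -0.38, and relative to those SST2 lay at -0.28.

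The PAK kinase gene STE20 (YHL007C, chrVIII:95118-97937, minus strand) is the longest of the 10, with 2820 nt of coding sequence. Its product phosphorylates Ste11 and is also used by the filamentous growth and osmotic stress pathways. STE20 had 42.2 RPKM of footprints and 60.2 RPKM of RNA, a density of -0.23. Genes of its length had a lower typical density, with a median of -0.63 over the 200 nearest, so STE20 was 0.40 above them. The other 2 PAK genes of yeast had fewer footprints. CLA4, which acts in budding and cytokinesis, had 20.5 RPKM of footprints and 33.9 RPKM of RNA, and SKM1 had 2.74 RPKM of footprints and 27.6 RPKM of RNA. STE20 thus had 2.06 times the footprints of CLA4 and 15.4 times those of SKM1, while its RNA level was 1.77 and 2.18 times theirs. The density of SKM1 was -3.05, that of CLA4 -0.44.

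The scaffold and the upper 2 kinases of the cascade had the lowest levels of the 10 genes, and their footprint levels were nearly the same. STE5 (YDR103W, chrIV:658350-661103, plus strand) encodes the scaffold that binds the 3 kinases and the beta-gamma dimer. It had 17.3 RPKM of footprints and 31.7 RPKM of RNA. STE11 (YLR362W, chrXII:849866-852019, plus strand) encodes the MAPKKK, shared with the filamentous growth and osmotic stress pathways, and had 16.7 RPKM of footprints and 20.6 RPKM of RNA. STE7 (YDL159W, chrIV:172481-174028, plus strand) encodes the MAPKK, and had 15.5 RPKM of footprints and 21.4 RPKM of RNA.

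The highest footprint level of these 3 was 1.11 times the lowest, while their RNA levels spanned 1.54-fold. STE5 had the most RNA and the lowest density of the 3, -0.59. STE11 had a density of -0.02 and STE7 of -0.18. Relative to STE5, STE11 had 0.96 times the footprints and 0.65 times the RNA, and STE7 had 0.90 times the footprints and 0.67 times the RNA. The even footprint levels therefore came with less even RNA levels, while the G protein subunits spanned 1.44-fold in footprints and 1.11-fold in RNA. With 1 library per assay, spreads of this size have no replicate check. STE11 was 0.41 above the genes nearest to it in length, and STE5 was 0.02 above its own neighbours in length. STE50, whose product is a binding partner of Ste11, had 20.6 RPKM of footprints and 25.2 RPKM of RNA, close to STE11 in both, with a density of -0.01.

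FUS3 (YBL016W, chrII:192451-193512, plus strand) encodes the MAPK of the mating response, which phosphorylates Dig1, Dig2, Far1 and Sst2 among other proteins. It had 47.3 RPKM of footprints and 44.5 RPKM of RNA. Its footprint level was 2.73 times that of STE5, 2.83 times that of STE11 and 3.05 times that of STE7. In RNA it had 1.40, 2.16 and 2.08 times their levels. FUS3 had the highest density of the 10 genes, 0.37, at percentile 68.1 of all analysed genes.

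The paralogous MAPK gene KSS1, which acts in filamentous growth and can stand in for FUS3 in mating, had 22.8 RPKM of footprints and 41.7 RPKM of RNA. FUS3 and KSS1 were thus alike in RNA, at a ratio of 1.07, and apart in footprints, at a ratio of 2.08. Their coding lengths, 1062 and 1107 nt, are similar, and the density of KSS1 was -0.59. Relative to the 200 genes nearest in length, FUS3 lay at 0.18 and KSS1 at -0.69.

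STE12 (YHR084W, chrVIII:274174-276240, plus strand) encodes the transcription factor that activates the mating genes. It had 30.0 RPKM of footprints and 48.7 RPKM of RNA, a density of -0.41 that lay at -0.04 relative to the genes nearest in length. Its repressors are Dig1 and Dig2, and Tec1 is its partner at filamentation genes. DIG1 had 64.6 RPKM of footprints and 76.1 RPKM of RNA. DIG2 had 22.0 RPKM of footprints and 24.1 RPKM of RNA. TEC1 had 48.6 RPKM of footprints and 47.2 RPKM of RNA. STE12 thus had 0.46 times the footprints of DIG1, 1.36 times those of DIG2 and 0.62 times those of TEC1. In RNA STE12 and TEC1 were alike, at a ratio of 1.03. The densities of DIG1 (0.05), DIG2 (0.15) and TEC1 (0.33) were each higher than that of STE12.

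Density within the pathway went with coding length. The Spearman correlation of density with coding length was -0.75 across the 10 genes and -0.62 across the 4642 genes, as a description across genes that share the same 2 libraries. STE18, the shortest at 333 nt, and FUS3, the second shortest, had the 2 highest densities. SST2, STE5 and STE12, at 2097, 2754 and 2067 nt, had the 3 lowest. The order was not complete: STE20, the longest at 2820 nt, had the seventh highest density, and STE11, longer than SST2 and STE12, had the fourth highest. Set against the 200 genes nearest in length, the 10 genes ranged from -0.50 for STE18 to 0.41 for STE11, with a median of -0.06 and 4 of 10 above 0. The sign changed for 5 of the 10. STE18 (0.33 before and -0.50 after) and STE4 (0.02 and -0.08) were then below 0, and STE20 (-0.23 and 0.40), STE11 (-0.02 and 0.41) and STE5 (-0.59 and 0.02) were above it. Genes of the length of STE18 had a median density of 0.83. The SD over the 10 genes was then 0.28, against 0.83 over all analysed genes, whose values reached down to -11.4.

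**Figure D2:**
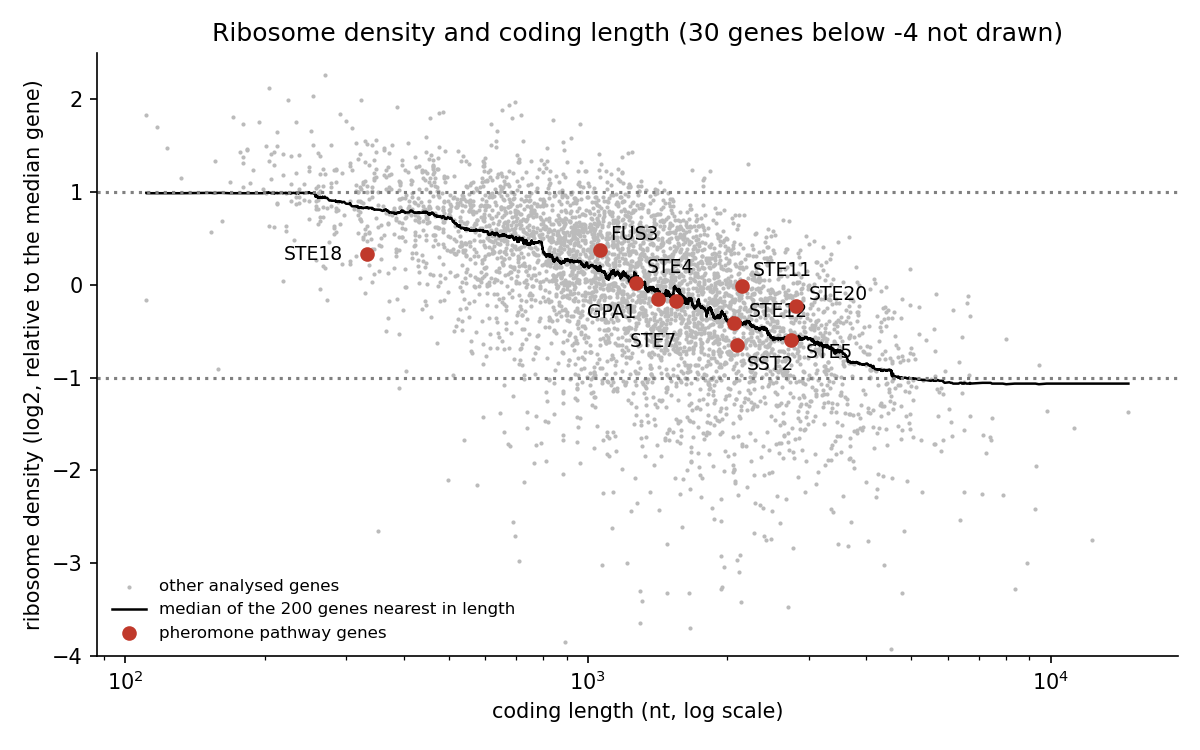
Ribosome density (log2, relative to the median gene) against coding length (nt, log scale) for the 10 pathway genes (red) and the other analysed genes (grey), with the median of the 200 genes nearest in length (line) and the 2-fold limits (dotted). All 10 pathway genes lie between the 2-fold limits, with STE18 at -0.50 relative to the line and STE11 and STE20 at 0.41 and 0.40; 30 genes below -4 are not drawn.

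Codon adaptation, which scores how far a gene uses the codons favoured by ribosomal protein genes, was ordinary for these genes. It ran from 0.148 for FUS3 to 0.212 for SST2, with a median of 0.196 against 0.198 over all analysed genes. Across the 10 genes it ran opposite to density, with a Spearman correlation of -0.73, whereas across the 4642 genes the correlation was 0.38. The 10 genes cover a narrow part of the range over all analysed genes, which ran from 0.061 to 0.929. FUS3 and STE18, the 2 genes with the highest densities, had the 2 lowest codon adaptation values, at percentiles 7.23 and 9.45. They are also the 2 shortest of the 10, and the part of length in the correlation was not tested. SST2, lowest in density, had the highest, at percentile 61.3.

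The start codon contexts are shown because ribosomes load onto an mRNA at initiation, and an A at the third base before the start codon is the best known favourable base in yeast. Each stretch holds 6 bases before the start codon, the start codon in capitals and 3 bases after it, read from assembly R64 on the gene's own strand.
GPA1: gaaataATGggg
STE4: attacgATGgca
STE18: ctaagaATGaca
SST2: tgtaagATGgtg
STE20: caagaaATGagc
STE5: ttttaaATGatg
STE11: atatacATGgaa
STE7: ttggtcATGttt
FUS3: aataatATGcca
STE12: ccaaggATGaaa

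In 6 of the 10 genes the third base before the start codon is A, against 61.4% of all listed genes. These are GPA1, STE4, STE18, SST2, FUS3 and STE12. STE20 and STE7 have G there, and STE5 and STE11 have T. The 6 genes with A had densities of -0.65 to 0.37 (median -0.07), and the other 4 had densities of -0.59 to -0.02 (median -0.20), so the ranges overlapped. Over all analysed genes the median density was 0.11 with A and -0.19 with another base. The 6 genes with A included the 2 highest densities of the pathway and also the lowest.

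Ste12 binds the pheromone response element, whose core is TGAAACA, and several pathway genes are known targets of Ste12 themselves. The core was searched on both strands (TGAAACA or TGTTTCA) in the 500 bases before each start codon, and was found in 6 of the 10 genes, against 12.0% of all listed genes. In the nearer 250 bases it was found in 3 of the 10, FUS3, SST2 and STE18, against 6.04% of all listed genes. The copy nearest to the start codon of each of the 6 genes is shown with the core in capitals, from R64 on the gene's own strand.
FUS3, chrII:192280-192316, plus strand: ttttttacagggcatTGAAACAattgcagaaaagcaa
SST2, chrXII:1041590-1041626, minus strand: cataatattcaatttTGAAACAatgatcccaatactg
STE18, chrX:585936-585972, plus strand: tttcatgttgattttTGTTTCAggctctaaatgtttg
STE4, chrXV:742577-742613, plus strand: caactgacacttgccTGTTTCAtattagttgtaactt
STE7, chrIV:172134-172170, plus strand: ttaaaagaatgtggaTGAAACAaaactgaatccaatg
STE12, chrVIII:273766-273802, plus strand: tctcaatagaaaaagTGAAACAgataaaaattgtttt

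STE12 itself held 3 copies of the core in its 500 bases, FUS3 and STE4 held 2 each, and SST2, STE18 and STE7 held 1 each. None of the stretches overlaps the coding sequence of a neighbouring gene. These letters were not in the window of GPA1, STE20, STE5 or STE11. RNA levels ran from 21.4 to 114 RPKM in the 6 genes with a copy (median 73.8) and from 20.6 to 103 RPKM in the 4 without (median 45.9), so the ranges overlapped. A match is a description of the sequence; binding was not measured.

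The cascade was next set beside 2 other MAP kinase cascades, the high osmolarity pathway and the cell wall integrity pathway. In each of the 3 the MAPK gene had the most footprints. FUS3, at 47.3 RPKM, was close to SLT2 of the cell wall pathway, at 45.0 RPKM, and below HOG1 of the osmotic pathway, at 104 RPKM. Among the MAPKK genes, STE7 (15.5 RPKM) was close to MKK1 (14.0 RPKM), above MKK2 (9.28 RPKM) and below PBS2 (37.9 RPKM). Among the MAPKKK genes, STE11 led with 16.7 RPKM, against 11.0 for SSK2, 7.76 for BCK1 and 2.04 for SSK22.

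The order at the top tier differed between the assays. STE11 had 20.6 RPKM of RNA, below SSK2 (42.4 RPKM) and BCK1 (31.3 RPKM) and above SSK22 (10.9 RPKM). The density of STE11, -0.02, stood against -1.66 for SSK2, -1.73 for BCK1 and -2.13 for SSK22. STE11 thus had 3.12, 3.27 and 4.32 times as many footprints per unit of RNA as those 3 genes. The coding sequence of STE11 is 2154 nt long, against 3996 to 4740 nt for those 3 genes. Relative to genes of like length STE11 lay at 0.41, and SSK2, BCK1 and SSK22 at -0.66, -0.81 and -1.28. The part of length in the difference was not tested. Between MAPKKK and MAPKK, footprints in the pheromone cascade were nearly even, with STE11 at 1.08 times STE7. PBS2 had 3.44 times the footprints of SSK2, and MKK1 had 1.81 times those of BCK1. The other MAPKK gene of the cell wall pathway, MKK2 (9.28 RPKM), was closer to BCK1 (7.76 RPKM). STE11, which also serves the osmotic stress pathway, had fewer footprints (16.7 RPKM) than PBS2 (37.9 RPKM).

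**Figure D3:**
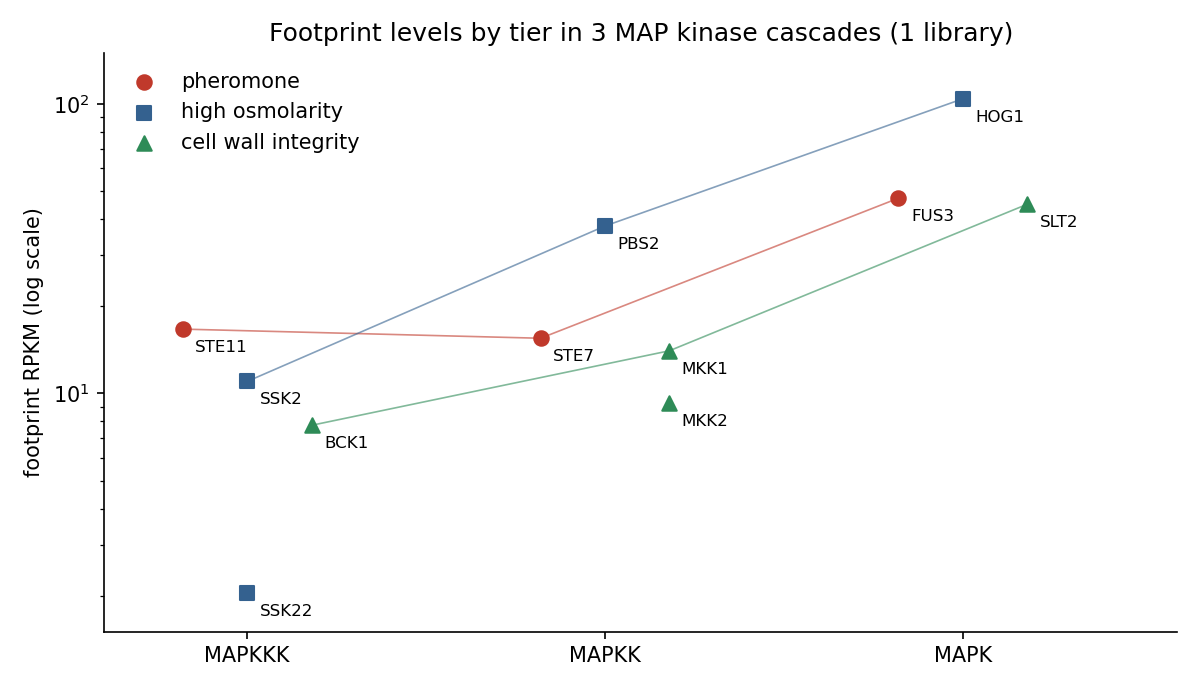
Footprint RPKM (log scale) of the kinase genes of the pheromone (circles), high osmolarity (squares) and cell wall integrity (triangles) cascades by tier, from 1 library; lines join the highest gene of each tier. STE11 and STE7 are nearly level at 16.7 and 15.5 RPKM, and FUS3 at 47.3 RPKM is beside SLT2 at 45.0 RPKM.

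Over the 11 listed of 13 genes for other MAPK cascades, PAK kinases and the second G protein system, the median density was -0.56. Of these 11, 4 lay over 2-fold lower than the median gene, against 13.1% of all analysed genes, and 0 over 2-fold higher, against 6.79%. Relative to genes of like length the median of the list was -0.45. On that scale SKM1 (-2.73) and SSK22 (-1.28) of the 4 lay past 2-fold, and SSK2 and BCK1 did not. GPA2, which encodes the alpha subunit of the glucose-sensing G protein, had the highest density of that list, 0.10. It had 37.7 RPKM of footprints and 43.0 RPKM of RNA, so that GPA1 had 2.02 times its footprints and 2.40 times its RNA.

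The proteins that work directly with the core pathway were examined next. All 16 genes of a list of direct partners were listed, with a median density of -0.08 and 1 of 16 past 2-fold on the low side, against 13.1% of all analysed genes, and 0 on the high side, against 6.79%. Among the polarity proteins that the pathway recruits, the GTPase gene CDC42 led the list in density, at 0.70, with 283 RPKM of footprints. Its exchange factor gene CDC24 had 27.3 RPKM of footprints, and its density was -0.57. The adaptor gene BEM1 had 31.9 RPKM of footprints, and its density was -0.16. FAR1, whose product links the beta-gamma dimer to Cdc24 and arrests the cell cycle, had 46.8 RPKM of footprints and 73.3 RPKM of RNA, a density of -0.36 and a footprint level beside that of FUS3.

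The phosphatases that switch off Fus3 were low in both assays. MSG5 had 12.9 RPKM of footprints and 25.1 RPKM of RNA, PTP3 had 12.2 and 25.2 RPKM, and PTP2 had 3.50 and 15.9 RPKM. PTP2 had the lowest density of the list, -1.90, with MSG5 at -0.68 and PTP3 at -0.77. NMT1, which encodes the enzyme that attaches myristate to Gpa1 and other proteins, had 107 RPKM of footprints, and its density was 0.51. AKR1, which encodes a palmitoyltransferase, had 80.7 RPKM of footprints, and its density was -0.65. The casein kinase genes YCK1 and YCK2, whose products phosphorylate the receptor, had 88.6 and 135 RPKM of footprints and densities of 0.06 and 0.18. Of the 16 genes 2 share some stretches of 28 bases with another place in the genome, 7 stretches in all.

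Of 18 genes for pheromones, receptors and pheromone maturation 15 were listed, and the gene for the a-factor receptor of alpha cells, STE3, and both alpha-factor genes were not among them. Their median density was -0.19, with 2 of 15 past 2-fold on the high side, against 6.79% of all analysed genes, and 1 on the low side, against 13.1%. The 2 on the high side were the a-factor genes MFA1 (1.83) and MFA2 (1.70), followed by BAR1, the secreted protease that degrades alpha-factor (0.46). The lowest were AXL1, a protease of a-factor maturation (-1.28), STE13 (-0.68) and the a-factor exporter gene STE6 (-0.67). Coding length is 111 nt for MFA1, 117 nt for MFA2 and 3873 nt for STE6, and the part of length in these places was not tested. Relative to genes of like length, MFA1 lay at 0.84, MFA2 at 0.71 and BAR1 at 0.70. On the same scale AXL1 lay at -0.51, STE13 at -0.07 and STE6 at 0.19.

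Of 20 genes of cell adhesion, cell fusion and nuclear fusion that pheromone is known to induce or that act in mating, 12 were listed and 10 passed the filter. They had a median density of 0.03, with 0 of 10 past 2-fold on the high side, against 6.79% of all analysed genes, and 2 on the low side, against 13.1%. The highest were the agglutinin genes AGA1 (0.75) and AGA2 (0.69) and PRM5 (0.68), and the lowest were FIG2 (-2.65), AFR1 (-1.14) and CIK1 (-0.74). Relative to genes of like length, AGA1 lay at 1.16 and PRM5 at 0.43, while AGA2, at 264 nt, lay at -0.26. On that scale FIG2 lay at -1.65, AFR1 at -0.83 and CIK1 at -0.49. FIG2 and AFR1 had few footprints, 1.53 and 3.81 RPKM. KAR5 and FUS2, needed for nuclear and cell fusion, were under the filter, with 0.77 and 0.63 RPKM of footprints against 8.62 and 6.70 RPKM of RNA. Their densities were -3.20 and -3.13. The median density of the list was -0.04 without the filter and 0.50 with a minimum mean of 20 RPKM. FUS1, a common reporter of the pathway that is named here after its values were seen, had 13.3 RPKM of footprints and 15.6 RPKM of RNA. It was below all of the pathway genes in footprints and in RNA.

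**Figure D4:**
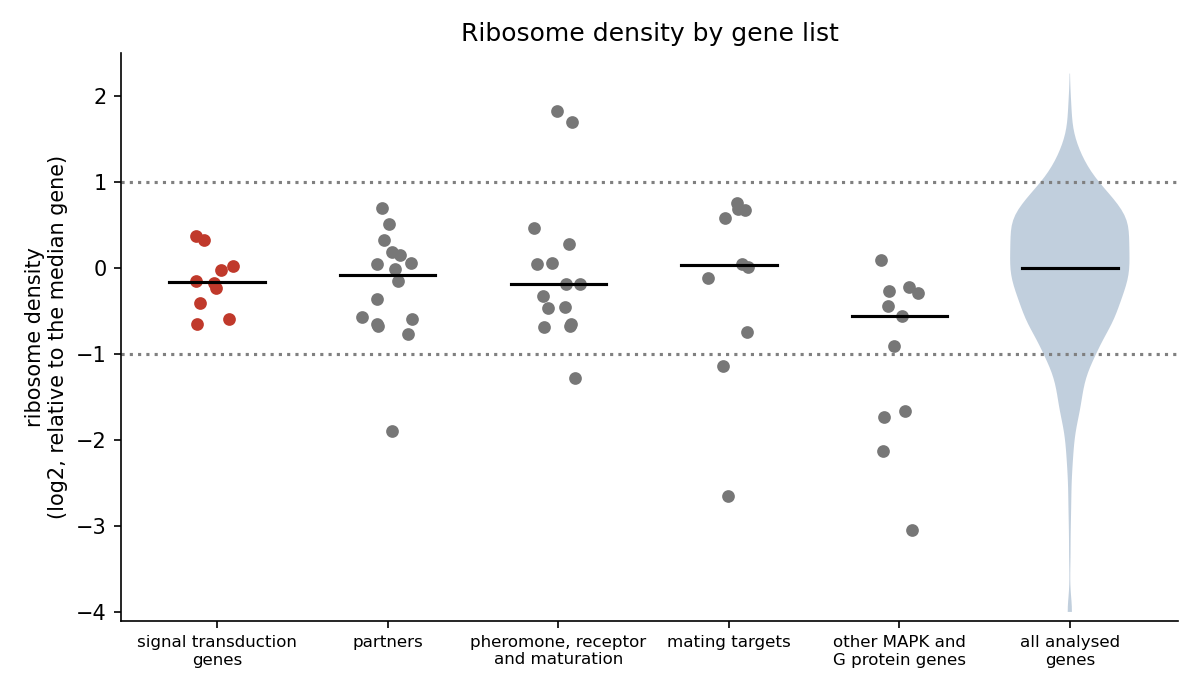
Ribosome density (log2, relative to the median gene) of the analysed genes of each list (points, with the median as a bar) and of all analysed genes (shape, with values below -4 drawn at -4); dotted lines mark 2-fold. The 10 signal transduction genes lie between -0.65 and 0.37, and the other MAPK and G protein genes reach -3.05.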

How the data were processed

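The authors deposited 1 table with RPKM values per gene for footprints and RNA and, per the file headers, their log2 ratio, called translational efficiency. Per the file headers, genes were kept at 10 RPM or more of RNA and more than 0 RPM of footprints. The build sacCer3 is named in the submitters' processing notes. The sources used here name neither the aligner nor the counting rule and its use of strand. The deposited log2 values equalled the log2 ratio of the RPKM columns to within 1.63e-09.

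Density had no pseudocount and was computed for genes averaging 5 RPKM or more over footprints and RNA, centred on their median (a footprint to RNA ratio of 0.821). Coding lengths and sequences came from RefSeq R64 and hold no UTRs. Values relative to genes of like length or RNA level used the median of the 200 nearest genes on a log scale. Codon adaptation was the geometric mean of codon weights from 131 ribosomal protein genes, with 0.5 added to each count. Python 3.11.15, numpy 2.4.6, pandas 2.3.3 and biopython 1.88 were used, and the density steps were tested on simulated data.

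The depth of the libraries is unknown: the best of 308 trial steps made 58.2% of 55 low footprint values whole to within 0.2 of a read. Evenly spread values would give 40% at any 1 step. The share at the best of 308 steps was not worked out for such values, so no conclusion is drawn. By RPKM times coding length the 10 genes had 24.0 to 121 RPM of footprints and 33.1 to 207 RPM of RNA, and rounding moves their values by at most 0.032%. The members and lists were chosen with earlier results of these data known. All 10 members are named, as are all listed genes of the partner and other MAPK lists, and the 3 highest and 3 lowest in density of the other 2 lists. Alternatives changed 1 choice at a time: the low-value filter, a pseudocount, the centring, and adjustment for coding length or RNA level.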

Additional observations from a re-analysis of the deposited data

How the results depend on the processing

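The median density of the 10 genes stayed below 0 under each of the 6 alternatives. It ran from -0.54 with centring on total footprints over total RNA to -0.06 with adjustment for coding length. Centring on totals moves every gene down by the same amount, so that 0 is then no longer the median gene. With centring on totals 1 of the 10 genes, SST2, lay past 2-fold on the low side, at -1.03, and all 10 were below 0. The shares of all analysed genes at these places under that centring were not worked out. These counts are therefore not a result about the pathway genes. In the other 5 alternatives none of the pathway genes lay past 2-fold. With a minimum mean of 20 RPKM, 8 of the 10 genes were left. The densities of STE18 (-0.50), STE20 (0.40) and STE5 (0.02) moved by more than 1.5-fold with adjustment for coding length. The ratio of FUS3 to STE5 was 2.73 in footprints and 1.40 in RNA. The footprint ratios of STE4 to STE18, GPA1 to STE4, STE11 to STE5, STE7 to STE5 and SST2 to GPA1 and the medians of the other 4 lists moved by less than 1.5-fold. Among the other pairs, adding 1 RPKM moved the footprint ratio most for STE11 to SSK22 (8.18 to 5.82) and STE20 to SKM1 (15.4 to 11.5). Several of these pairs differ by more than 1.5-fold between footprints and RNA. Examples are FUS3 to KSS1 (2.08 and 1.07), STE20 to SKM1 (15.4 and 2.18) and STE12 to TEC1 (0.62 and 1.03). The window for the response element, chosen after seeing the data, changed the count of genes holding it to 3 with 250 bases, against 6 with 500. No paired analysis was possible because there is 1 library per assay and the labels give no replicate numbers. The unknown depth leaves counting error unquantified, most of all for genes under 1 RPKM of footprints.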

Other observations

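Upstream ATG triplets were counted on the gene's own strand in the 100 bases before each start codon; where transcripts begin was not measured. STE18, STE11 and STE7 held 2 each, and the other 7 pathway genes held 0, so that 3 of 10 held at least 1, against 49.0% of all listed genes. The densities of the 3 genes with an upstream ATG were 0.33 for STE18, -0.02 for STE11 and -0.18 for STE7. The 7 genes without one ran from -0.65 to 0.37, with a median of -0.23, so the ranges overlapped. Over all analysed genes the median density was -0.06 with an upstream ATG and 0.05 without one.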
